A study of Mus musculus with 26 samples.

Results

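ATF2 and JUND were mapped by ChIP-seq in untreated 3T3-L1 adipocytes, a mouse fat cell line differentiated in culture. The 24192 ATF2 windows and the 23509 JUND windows of the deposited lists, each 200 bp long, were joined wherever they overlapped by at least 1 bp, which gave 36299 sites. The 15 peak lists used here hold 67815 sites when joined in the same way. Of the ATF2 and JUND sites, 12793 (35.2%) held ATF2 windows only and are called ATF2-only sites, 12113 (33.4%) held JUND windows only, and 11393 (31.4%) held both and are called shared.

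The series has 26 samples of this line, and 15 of them supply a ChIP-seq peak list in the coordinates of the mouse genome build mm8. ATF2, JUND, FOSL2, CEBPa and CEBPb have 1 list each, all from untreated cells. CBP, p300 and NCOR have 1 list from untreated cells and 1 from cells given 1 µM rosiglitazone, an agonist of the nuclear receptor PPARγ, and MED1 has 2 lists in each condition. The labels give no time of rosiglitazone treatment for the ChIP-seq samples, but the peak names of the treated MED1 replicate 2 list carry the tag 1h and those of the treated NCOR list 30m, and equal treatment times cannot be assumed. Marker genes of adipocytes were not checked here. A list reports where the authors called a peak and a score for it, without read counts, so the depth behind each list is unknown, and a site missing from a list is only one that was not called there. With 1 list for each factor there is no replicate error for ATF2, JUND, FOSL2, CEBPa, CEBPb, CBP, p300 or NCOR, and no p-value is given. The 95% intervals below (Wilson for a share, Newcombe for a difference of shares) treat each site as 1 count and cover counting error only. The lists run from 4656 to 28491 peaks, and both MED1 lists of untreated cells, with 5660 and 4656 peaks, are the shortest of those from untreated cells.

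ATF2 and JUND are leucine zipper proteins, which bind DNA as dimers. JUND is a JUN-family subunit of AP-1 and pairs with FOS-family proteins such as FOSL2, typically on AP-1 elements, whereas ATF2 forms homodimers or pairs with JUN proteins and prefers the related cAMP response element. DNA-bound factors of this kind work through cofactors: MED1 is a subunit of Mediator, the complex that links enhancers to RNA polymerase II, CBP and p300 are related histone acetyltransferases, and NCOR is a corepressor that carries histone deacetylase activity. CEBPa and CEBPb are leucine zipper factors of another family that drive adipocyte differentiation.

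The first question was how far ATF2 and JUND occupied the same sites, and the overlap was partial in both directions. Shared sites held 47.1% of ATF2 peaks (95% interval 46.5 to 47.7%) and 48.5% of JUND peaks (47.8 to 49.1%). Where they met, the windows lay close together: in the 11384 shared sites with 1 window of each factor the centres were a median of 25 bp apart (quartiles 11 and 47 bp), and 77.3% were within 50 bp. Away from the shared sites the factors were mostly far apart, since 36.6% of ATF2 peaks had no JUND centre within 5 kb and 36.9% of JUND peaks had no ATF2 centre within 5 kb. Few peaks sat near the limit of overlap. Just inside it, with centres 150 to 199 bp apart, were 176 ATF2 peaks, and just outside it, at 200 to 249 bp, were 130. The same counts for JUND were 174 and 118. Sites of all classes had neighbours of their own and of the other classes, and another ATF2 or JUND site lay within 5 kb of 44.3% of ATF2-only, 37.9% of JUND-only and 50.4% of shared sites.

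The better-scored peaks of either factor were more often shared. The authors' scores were compared only as percentiles within a list. The median ATF2 percentile was 39.0 at ATF2-only sites (quartiles 17.1 and 62.0) and 65.8 at shared sites (39.0 and 84.7), and a shared site outranked an ATF2-only site in 70.2% of pairs. The JUND list differed less, with medians of 41.6 at JUND-only sites (18.2 and 67.0) and 58.7 at shared sites (32.8 and 82.1), and the shared site ranked higher in 63.6% of pairs. From the lowest to the highest score decile the shared part of the list went from 23.8% to 79.4% for ATF2 and from 29.6% to 76.4% for JUND. The upper 50% of each list by score left 7045 ATF2-only, 6704 JUND-only and 5050 shared sites. There the median differences of 26.8 points for ATF2 and 17.1 points for JUND became 14.5 and 5.31 points. Such a cut narrows the range of percentiles. It also makes a shared site single-factor where only 1 of its peaks passes, and these effects were not separated. High-scoring peaks of 1 factor alone also existed: 505 ATF2-only and 552 JUND-only sites were in the highest decile of their list. Within shared sites the percentiles of both factors followed each other only loosely (Spearman's rho 0.36 and Pearson's r 0.34 over 11393 sites of the same pair of lists, given as a description).

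**Figure D1:**
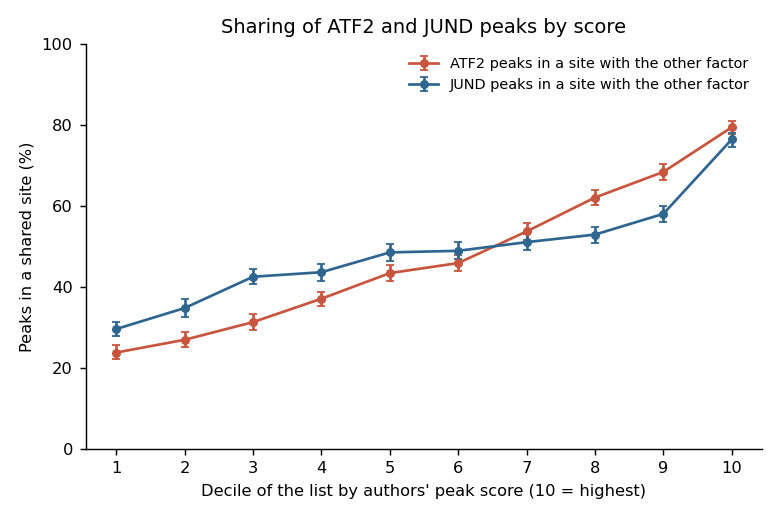
Share of ATF2 peaks and of JUND peaks that lie in a site with the other factor (y axis, %), by decile of the authors' peak score within each list (x axis, 10 = highest); bars are 95% Wilson intervals. The share goes from 23.8% to 79.4% for ATF2 and from 29.6% to 76.4% for JUND, and the lines cross between deciles 6 and 7.

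The other factor lists split along the same division. FOSL2, a FOS-family partner of JUND, was called at 72.4% of JUND-only sites (71.6 to 73.1%) and 60.2% of shared sites (59.3 to 61.1%), but at 9.14% of ATF2-only sites (8.65 to 9.65%). Sites of the untreated cofactor lists, taken as a background, held FOSL2 in 26.2% of cases. Between ATF2-only and JUND-only sites the C/EBP lists lay the other way. CEBPa or CEBPb was called at 28.8% of ATF2-only sites (28.0 to 29.6%) and 33.9% of shared sites (33.0 to 34.8%), against 5.70% of JUND-only sites (5.30 to 6.12%) and 30.6% of the cofactor sites. ATF2-only and shared sites were thus near the share of the cofactor sites, and JUND-only sites far below it. JUND-only minus ATF2-only, the difference was 63.2 percentage points for FOSL2 (62.3 to 64.1) and -23.1 points for C/EBP (-24.0 to -22.2), each with the same sign on 20 of 20 chromosomes. ATF2-only and shared sites were much closer to each other in C/EBP, 5.10 points apart (3.93 to 6.27), and on 1 of the 20 chromosomes that order was turned.

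Both contrasts were wider among higher-scored sites. At JUND-only sites FOSL2 went from 46.9% in the lowest of 4 score bins (quartiles) of the JUND list to 70.4%, 89.2% and 98.6% in the next 3, so that nearly every high-scoring JUND-only site was also a FOSL2 site. At ATF2-only sites C/EBP went from 16.3% in the lowest to 52.8% in the highest bin of the ATF2 list, whereas at JUND-only sites it went only from 4.64% to 8.92% along the JUND list. The few FOSL2 peaks at ATF2-only sites were low in their own list, with a median FOSL2 percentile of 27.5 against 62.0 at JUND-only and 69.7 at shared sites.

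The cofactors of untreated cells were called most often at shared sites, less often at ATF2-only sites and least often at JUND-only sites, for coactivators and corepressor alike. CBP held 62.7% of shared sites (61.8 to 63.6%), 31.2% of ATF2-only sites (30.4 to 32.0%) and 10.5% of JUND-only sites (9.94 to 11.0%), against 27.0% of all 49656 sites of the 5 factor lists. The p300 list held 56.4%, 29.4% and 9.92% in the same order, against a background of 25.1%. NCOR held 61.8%, 44.3% and 13.2%, against 34.8%. MED1, counted where at least 1 of its 2 lists had a peak, held 33.3%, 15.7% and 3.80%, against 13.7%. JUND-only sites were thus below the background of each cofactor, which includes them, and ATF2-only sites stood a few points above it, most for NCOR.

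MED1 offers the one check between replicates. In the replicate 1 list the shares were 26.5% of shared, 10.2% of ATF2-only and 2.57% of JUND-only sites, against 9.87% of all factor sites. Replicate 2 gave 18.3%, 8.92% and 1.63%, against 7.68%. The level differed between the lists while the order of the classes was the same in both, and the gap between JUND-only and ATF2-only sites was -7.66 points in replicate 1 (-8.26 to -7.07) and -7.28 points in replicate 2 (-7.83 to -6.75). Sites called in both MED1 lists made up 11.5% of shared, 3.49% of ATF2-only and 0.40% of JUND-only sites, a gap of -3.08 points. Shared minus single-factor sites, MED1 differed by 20.0 points in replicate 1, 12.9 in replicate 2 and 9.47 with both lists required.

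**Figure D2:**
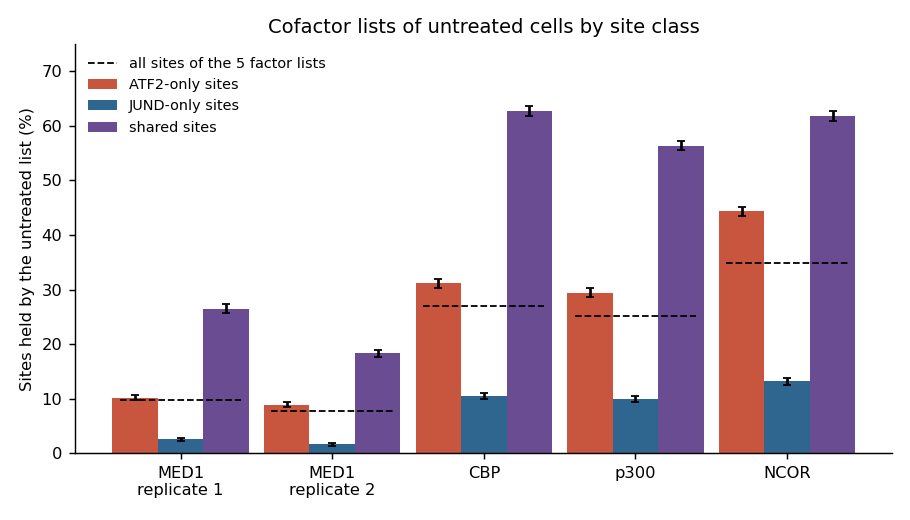
Share of ATF2-only, JUND-only and shared sites that each cofactor list of untreated cells holds (y axis, %), with 95% Wilson intervals; dashed lines give the share of all sites of the 5 factor lists. In each of the 5 lists the shared bar is highest and the JUND-only bar lowest, and JUND-only bars lie under the dashed line.

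JUND-only minus ATF2-only, the difference was -11.9 points for MED1 (-12.6 to -11.2), -20.7 for CBP (-21.7 to -19.7), -19.5 for p300 (-20.5 to -18.6) and -31.1 for NCOR (-32.2 to -30.1). Shared sites exceeded single-factor sites by 23.5 points for MED1 (22.5 to 24.4), 41.6 for CBP (40.6 to 42.6), 36.5 for p300 (35.4 to 37.5) and 32.6 for NCOR (31.6 to 33.7). All 8 differences had the same sign on 20 of 20 chromosomes. Their size varied with the length of the lists. With each cofactor list reduced to its 4656 best-scored peaks, the length of the shortest MED1 list, the JUND-only minus ATF2-only gap was -6.16 points for CBP, -6.29 for p300, -7.68 for NCOR and, for each MED1 list on its own, -6.42 and -7.28. The gap between shared and single-factor sites was then 23.3 points for CBP, 20.0 for p300, 15.5 for NCOR and 18.0 and 12.9 for the MED1 lists. At that length JUND-only sites had similar shares of each cofactor, with 1.56% for CBP, 1.96% for p300, 1.71% for NCOR and 1.92% and 1.63% for the MED1 lists. ATF2-only sites had 7.72%, 8.25%, 9.39%, 8.34% and 8.92%, and shared sites had 28.0%, 25.1%, 21.2%, 23.2% and 18.3%, in the same order, so CBP was highest at shared sites. At ATF2-only sites the NCOR interval (8.89 to 9.91%) overlapped that of MED1 replicate 2 (8.44 to 9.43%). It lay above those of CBP (7.27 to 8.20%), p300 (7.79 to 8.74%) and MED1 replicate 1 (7.87 to 8.83%). In the upper 50% of the ATF2 and JUND lists the JUND-only minus ATF2-only gap was wider, at -23.0 points for MED1 and -30.4 for CBP. The gap between shared and single-factor sites was narrower for CBP (39.4 points) and p300 (33.8), wider for MED1 (25.8) and nearly the same for NCOR (32.3). The cut also changes the class of some sites, so these gaps do not compare the same sites.

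Most JUND-only sites were in none of the untreated lists of the 4 mapped cofactors, which does not show that no cofactor was there. The matching shares of all factor sites were not computed for the combinations or the 1 kb counts below. None of the 4 cofactors was called at 77.0% of JUND-only sites (76.2 to 77.7%), 41.9% of ATF2-only sites (41.1 to 42.8%) and 19.1% of shared sites (18.4 to 19.8%). All 4 were called together at 24.1% of shared sites, the most frequent combination in that class, and at 7.70% of ATF2-only and 1.11% of JUND-only sites. Among sites with a cofactor call, NCOR without any coactivator was the most frequent combination at both ATF2-only and JUND-only sites. It made up 13.6% of all ATF2-only, 6.27% of all JUND-only and 7.01% of all shared sites. The NCOR list, with 25136 peaks, was also the longest of the cofactor lists of untreated cells. With cofactor windows up to 1 kb away counted as well, 30.8% of JUND-only sites had any of the 4, against 64.4% of ATF2-only and 83.2% of shared sites. Seen from the untreated cofactor lists, JUND-only sites held 5.25% and 4.12% of the MED1 peaks of replicates 1 and 2. They held 7.99% of the CBP, 7.80% of the p300 and 6.17% of the NCOR peaks. Shared sites held 53.3% and 44.7% of the MED1, 46.4% of the CBP, 42.8% of the p300 and 28.0% of the NCOR peaks. Of the NCOR peaks, 43.3% lay at no ATF2 or JUND site. The CBP peaks at JUND-only sites also ranked low in their list, with a median percentile of 30.9 against 47.1 at ATF2-only and 65.8 at shared sites.

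Cofactor shares were higher at better-scored ATF2-only sites, and at JUND-only sites they differed by fewer points along the score, for MED1 by no more than counting error. From the lowest to the highest score bin of the ATF2 list, MED1 at ATF2-only sites went through 7.44%, 14.0%, 21.8% and 30.0%. MED1 at JUND-only sites was 3.45%, 4.16%, 3.80% and 3.83% along the JUND list. The highest JUND-only bin had 2.57% in MED1 replicate 1 (1.97 to 3.35%) and 1.60% in replicate 2 (1.14 to 2.24%), against 2.19% and 1.58% in the lowest. CBP went from 17.1% to 53.8% at ATF2-only sites and from 7.06% to 18.7% at JUND-only sites, p300 from 16.9% to 47.2% and from 7.43% to 15.9%, and NCOR from 27.0% to 73.1% and from 10.1% to 21.3%. The best-scored JUND-only sites therefore had a lower CBP, p300 and NCOR share than ATF2-only sites of the second score bin.

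**Figure D3:**
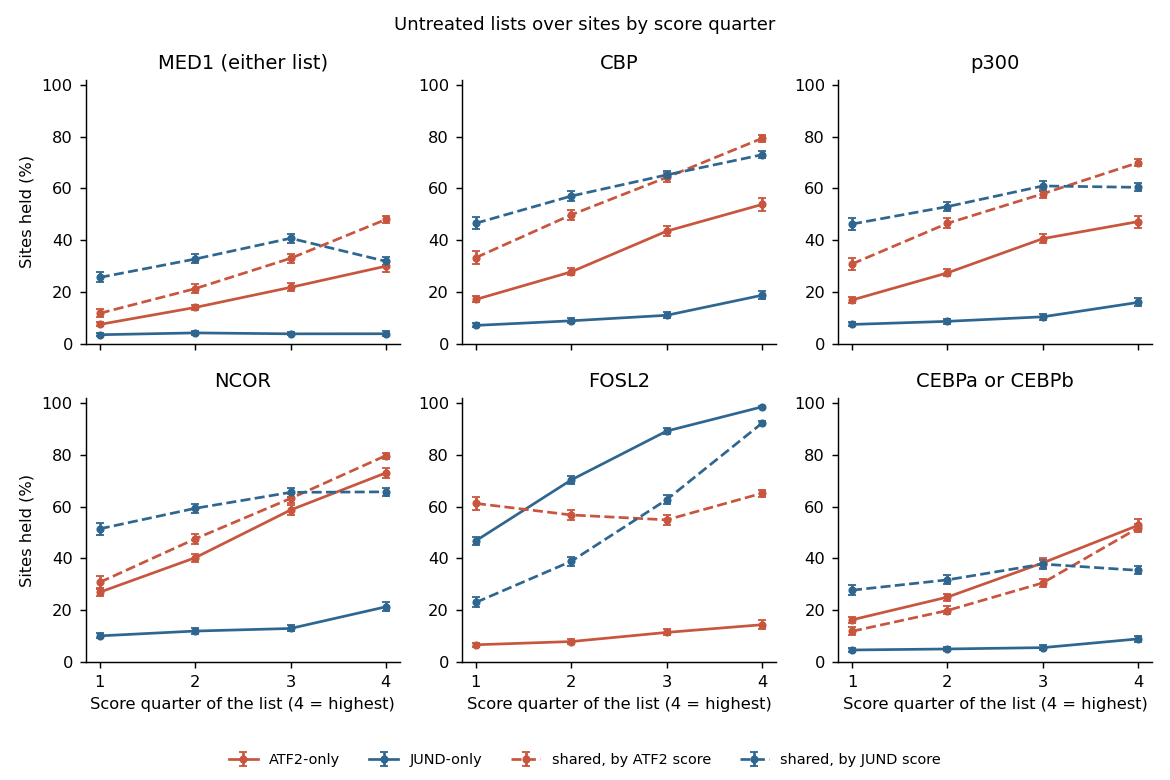
Share of sites held by each untreated list (y axis, %) in 4 score bins (quartiles) of the ATF2 or JUND list (x axis, 4 = highest), for ATF2-only and JUND-only sites (solid) and for shared sites binned by ATF2 or by JUND score (dashed), with 95% Wilson intervals. MED1 at JUND-only sites stays between 3.45% and 4.16% while FOSL2 there goes from 46.9% to 98.6%; MED1 at ATF2-only sites goes from 7.44% to 30.0%.

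Sites of each class were then split by whether the FOSL2 and C/EBP lists held them, since these differed so much between ATF2-only and JUND-only sites. The largest groups were ATF2-only sites with neither (65.5% of the class) and JUND-only sites with FOSL2 alone (69.0%). With neither FOSL2 nor C/EBP, CBP was called at 21.2% of 8376 ATF2-only sites and 10.2% of 3065 JUND-only sites, a difference of -11.0 points (-12.4 to -9.60), and NCOR at 32.7% and 14.8%. With FOSL2 and without C/EBP, CBP was called at 33.9% of 734 ATF2-only sites and 8.49% of 8358 JUND-only sites, a difference of -25.4 points (-29.0 to -22.0). The gap with FOSL2 exceeded the gap without it for all 4 cofactors, by -11.6 points for MED1 (-14.7 to -8.76), -14.4 for CBP (-18.2 to -10.8), -16.1 for p300 (-19.9 to -12.4) and -12.1 for NCOR (-16.1 to -8.25) at sites without C/EBP. At sites with C/EBP and without FOSL2, of which only 283 were JUND-only, the difference was -6.77 points for CBP (-12.7 to -0.70) and -10.0 for NCOR (-16.0 to -4.27). For p300 it was -4.01 points (-9.85 to 2.05) and for MED1 -5.03 (-9.72 to 0.36), both with an interval that included 0. By point value the CBP, p300 and NCOR gaps were smallest in this group of sites, and the MED1 gap, at -4.23 points (-5.25 to -3.15), with neither factor. Between this group and sites with neither factor the intervals overlapped for MED1, CBP and p300, so that order is not settled. The NCOR interval with neither factor (-17.9 points, -19.4 to -16.2) did not overlap.

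FOSL2 went with more cofactor at some classes of site and with less at others. At ATF2-only sites without C/EBP, those with FOSL2 exceeded those without by 7.84 points for MED1 (5.16 to 10.8), 12.7 for CBP (9.25 to 16.3), 13.3 for p300 (9.82 to 16.9) and 6.30 for NCOR (2.69 to 10.01). At JUND-only sites without C/EBP the same difference was -3.73 points for MED1 (-4.66 to -2.89), -1.72 for CBP (-2.98 to -0.52), -2.81 for p300 (-4.07 to -1.61) and -5.80 for NCOR (-7.23 to -4.43). Shared sites without C/EBP had more CBP with FOSL2, by 14.7 points (12.4 to 16.9), and more p300, by 7.14 points (4.84 to 9.42). For MED1 the difference there was -1.45 points (-3.44 to 0.53) and for NCOR -0.60 points (-2.91 to 1.71), both within counting error. C/EBP came with a higher cofactor share in each class: without FOSL2, MED1 was at 26.9% of ATF2-only sites with C/EBP and 10.0% without, at 21.9% and 5.77% of JUND-only sites, and at 51.6% and 24.9% of shared sites. CBP reached 86.3% at the 2294 shared sites that held both FOSL2 and C/EBP.

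Shared sites themselves ranged from JUND-weighted to ATF2-weighted, and the other lists differed along that balance. They were ordered by ATF2 percentile minus JUND percentile and cut into 5 equal groups. From the group where JUND ranked highest over ATF2 to the group where ATF2 ranked highest over JUND, FOSL2 went through 92.7%, 74.5%, 57.9%, 44.2% and 31.5%. C/EBP went the other way, through 13.5%, 29.1%, 40.0%, 42.9% and 44.0%. MED1 was at 13.9%, 29.6%, 40.0%, 44.4% and 38.9%, highest in the fourth group, and both MED1 lists had this shape. NCOR went from 39.4% to 68.5% and CBP from 50.9% to 66.0% between the end groups. The shift was thus steepest for FOSL2, and of the cofactors CBP was called most often at the JUND-weighted end.

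**Figure D4:**
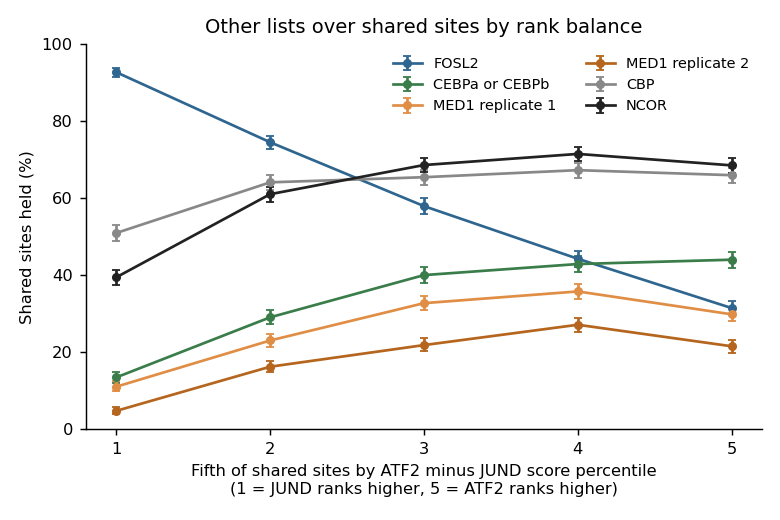
Share of shared sites held by FOSL2, C/EBP, both MED1 lists, CBP and NCOR in untreated cells (y axis, %) in 5 equal groups ordered by ATF2 minus JUND score percentile (x axis, 1 = JUND ranks higher, 5 = ATF2 ranks higher), with 95% Wilson intervals. FOSL2 goes from 92.7% to 31.5%, C/EBP from 13.5% to 44.0%, and both MED1 lists are lowest in group 1 and highest in group 4.

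The extremes of that balance were far apart in FOSL2, C/EBP, MED1, NCOR and CBP. All 359 shared sites in the highest score bin of JUND and the lowest of ATF2 held FOSL2, which allows a share without FOSL2 of up to 0.836% (3 counts of the total). C/EBP was called at 8.36% of them, MED1 at 5.85%, NCOR at 25.6% and CBP at 37.9%. The reverse group, 220 sites in the highest ATF2 and lowest JUND bin, had FOSL2 at 25.5%, C/EBP at 46.4%, MED1 at 33.2%, and NCOR and CBP at 63.2% each. Sites in the highest bin of both lists, 2019 in number, joined both profiles, with FOSL2 at 86.8%, C/EBP at 52.1%, CBP at 84.3%, NCOR at 82.5% and MED1 at 45.2%. At the 479 sites in the lowest bin of both, FOSL2 was at 25.3%, CBP at 29.9% and MED1 at 16.1%.

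The cofactor lists of rosiglitazone-treated cells were read over the same sites, although ATF2 and JUND were mapped only without the drug. The order of the classes was the same after treatment for each cofactor. CBP was called at fewer sites of every class, with 46.3% of shared, 17.6% of ATF2-only and 5.11% of JUND-only sites, against 17.5% of all factor sites, and the CBP list itself was shorter (9515 peaks after, 15383 before). The p300 list, with 13746 peaks after and 15007 before, also held fewer sites of each class, at 48.1%, 26.0% and 8.39%, against 21.8%. NCOR, with 28491 and 25136 peaks, held slightly more, at 63.7%, 47.7% and 14.6%, against 37.4%. MED1 held more in both replicates: replicate 1 (8069 and 5660 peaks) was at 29.3%, 14.4% and 3.97%, against 12.4%, and replicate 2 (7104 and 4656 peaks) at 18.99%, 11.2% and 2.39%, against 9.09%. Changes in a list's length and in occupancy cannot be told apart here.

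Cofactor sites also differed by class in how many were called again. Of the CBP sites of untreated cells, 68.2% of those at shared sites (67.1 to 69.2%), 47.0% at ATF2-only sites (45.4 to 48.5%) and 30.9% at JUND-only sites (28.4 to 33.5%) were in the CBP list after rosiglitazone, against 51.3% of all CBP sites. For p300 the shares were 73.4%, 62.8% and 49.3%, against 62.5%, and for NCOR 87.1%, 81.5% and 68.8%, against 75.2%. MED1 replicate 1 gave 68.9%, 59.0% and 45.0%, against 60.3% of all its sites, and replicate 2 gave 58.0%, 50.5% and 32.3%, against 47.3%. Cofactor peaks at JUND-only sites ranked lower in their lists than those at ATF2-only or shared sites, with median percentiles of 30.9 for CBP, 39.0 for p300, 43.5 for NCOR and 41.9 and 43.4 for the MED1 lists, so the shares were also taken within bins of the cofactor's own score. In the highest bin of CBP, 92.2% of shared, 79.7% of ATF2-only and 63.0% of 146 JUND-only sites were also held by the treated list, and in the lowest bin 27.9%, 18.3% and 13.9%. For p300 shared and ATF2-only sites were within counting error of each other in the lowest bin (40.7% and 40.8%) and the next (54.3% and 53.2%), with JUND-only sites at 27.0% and 45.6%. NCOR classes were close together in the highest bin, at 98.5%, 97.8% and 94.97%, and its lowest bin gave 58.8%, 54.5% and 45.6%.

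**Figure D5:**
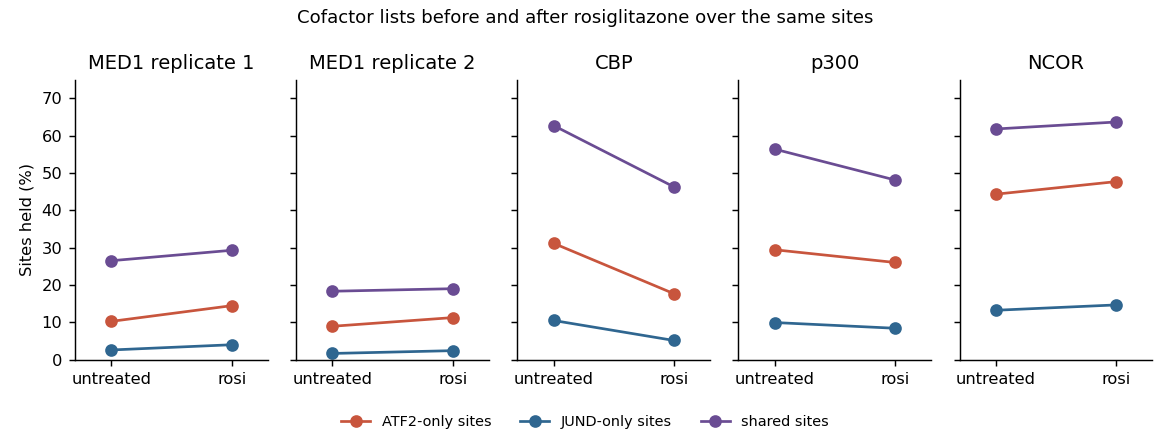
Share of ATF2-only, JUND-only and shared sites held by each cofactor list (y axis, %) in untreated cells and after rosiglitazone (rosi), with the site classes fixed in untreated cells. CBP at shared sites goes from 62.7% to 46.3%, and in every panel shared sites are highest and JUND-only sites lowest in both conditions.

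Single sites show what the lists contain; they are named by score rank in mm8 coordinates and were not assigned to genes. The best-scored ATF2-only site was chr8:87730809-87731008, with an ATF2 score of 10.71, an NCOR score of 2.21 in untreated cells and 1.86 after rosiglitazone, a CEBPb score of 1.23 and no FOSL2. At chr5:135293474-135293673, next in rank with an ATF2 score of 10.33, CEBPa scored 7.10 and CEBPb 8.40 and the nearest JUND centre was 18994 bp away. All 5 best-scored ATF2-only sites held NCOR, 4 held CEBPb and none held FOSL2. Among them only chr11:102949100-102949299 held MED1 (score 1.20, replicate 1), and only chr17:56141429-56141628 held CBP (score 1.06). Over the whole highest score bin of ATF2-only sites, NCOR was at 73.1%, CEBPb at 51.4%, FOSL2 at 14.4%, MED1 at 30.0% and CBP at 53.8%.

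The best-scored JUND-only site, chr10:117140141-117140340, had the highest JUND score of the list, 18.74, and a FOSL2 score of 32.14. No cofactor list of untreated cells held it, whereas after rosiglitazone it scored 21.67 in MED1 replicate 1 and 21.94 in p300, the highest p300 score of that list, with nothing called in MED1 replicate 2, CBP or NCOR. These treated scores rest on 1 list each, and the MED1 call was not repeated in the other replicate. Without reads the peaks could not be inspected, and whether they reflect binding or a response to the drug was not tested. The next, chr11:3053769-3053968, had a JUND score of 17.42 and a FOSL2 score of 28.75 and was in no cofactor list of either condition. At chr6:84232551-84232750 JUND scored 13.21, FOSL2 20.45, p300 5.13 and NCOR 2.62. All 5 of the best-scored JUND-only sites held FOSL2, 2 held NCOR, 1 held p300, and none held MED1 or CBP in untreated cells. Over the whole highest score bin of JUND-only sites, FOSL2 was at 98.6%, NCOR at 21.3%, p300 at 15.9%, CBP at 18.7% and MED1 at 3.83%.

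Shared sites of the highest rank carried many more lists. At chr6:53502745-53502994 ATF2 had its highest score, 19.89, and JUND 14.76, together with FOSL2 at 21.54, CBP at 5.77 and NCOR at 3.31. At chr6:143597905-143598131 JUND scored 16.64 and ATF2 8.40, and each untreated list held the site: FOSL2 24.49, CBP 9.06, NCOR 8.01, p300 6.39, CEBPb 5.67, CEBPa 4.49 and MED1 3.16 and 2.94. All 5 shared sites of the highest rank held FOSL2, CBP and NCOR, and 3 held MED1. Over all shared sites in the highest bin of both lists, these were at 86.8%, 84.3%, 82.5% and 45.2%. High rank did not always come with a cofactor, for at chr17:84786238-84786440 ATF2 scored 16.17 and JUND 7.80 and no cofactor list of either condition had a peak. At the ends of the balance, chr16:21924472-21924679 had an ATF2 score of 6.80 beside a JUND score of 1.00, with CBP at 1.29 and NCOR at 1.80 and neither FOSL2 nor C/EBP. At the other end, chr7:101323780-101324005 had a JUND score of 8.07 beside an ATF2 score of 1.03, with FOSL2 at 9.73, p300 at 2.48, NCOR at 1.80, CEBPa at 1.69, CEBPb at 1.53 and CBP at 1.24.

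The classes were spread over all 20 chromosomes in similar proportions, apart from chromosome X. ATF2-only sites made up between 32.7% (chromosome 14) and 38.5% (chromosome 7) of the sites of a chromosome. Chromosome X had the highest JUND-only share, 43.7% of its 501 sites (39.4 to 48.1%), and the lowest shared part, 21.2% (17.8 to 24.9%), against 33.4% and 31.4% of all sites.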

How the data were processed

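The authors deposited peak lists of 200 bp windows in mm8 coordinates with a score per peak; the score is the authors' and its scale is not stated. The submitters' processing notes name Bowtie, HOMER, bedtools and mm8; no source used here states their versions or roles, the thresholds, or whether the input served as control. The lists were read with Python 3.11.15, pandas 2.3.3, numpy 2.4.6 and scipy 1.17.1, and drawn with matplotlib 3.10.9. Windows of ATF2 and JUND overlapping by at least 1 bp were chained into sites; another list held a site where any of its windows overlapped it. Scores were turned into percentiles within a list (ties averaged), a site taking its best window, and into bins of 4, 5 or 10. Intervals are Wilson and Newcombe at 95%, and they cover counting error only, since read depth is unknown. The code was tested on simulated data. Named sites are the 5 best-scored of each class, the 3 best without an untreated cofactor and the 3 shared sites at each end of the percentile difference. Peak names carry tags that differ between lists (B in the MED1 replicate 1 lists, DS in those of CEBPa and CEBPb, 20M in those of NCOR, 1h in treated MED1 replicate 2 and 30m in treated NCOR), whose meaning is not stated. Whether the MED1 lists stem from different cultures is unstated, and the difference between them could be technical only. The members and lists were chosen with earlier results of these data known. GRO-seq and input samples were not analysed here, and neither motifs nor gene annotation was used, since no mm8 genome was used here.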

Additional observations from a re-analysis of the deposited data

How the results depend on the processing

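The 12 differences between classes kept their direction in all 70 recomputations that could move them. In 37 of these the value was counted as close to the reported one, but closeness was not judged alike for all results. Outside MED1, close meant within the interval of the reported difference. For MED1 it did not: JUND-only minus ATF2-only of -12.28 points, inside -12.59 to -11.15, counted as shifted. MED1 shared minus single-factor of 25.76 points, outside 22.51 to 24.40, counted as close. The count of 37 therefore mixes unlike rules. Restricting both factor lists to their upper 50% by score left 7045 ATF2-only, 6704 JUND-only and 5050 shared sites, with percentile differences of 14.47 and 5.31 points. That cut narrows the range of percentiles and also changes the class of some sites, and these effects were not separated. In that upper 50%, JUND-only minus ATF2-only was -23.04 points for MED1, -30.37 for CBP, -28.86 for p300, -43.36 for NCOR, 73.63 for FOSL2 and -33.84 for C/EBP. Shared minus single-factor was 39.37 for CBP, 33.83 for p300, 25.76 for MED1 and 32.26 for NCOR. With centres at most 100 bp apart as the overlap, JUND-only minus ATF2-only was -10.85 for MED1, -19.51 for CBP, -18.22 for p300, -28.14 for NCOR, 62.17 for FOSL2 and -21.74 for C/EBP, and shared minus single-factor was 35.09 for p300. Equal length of the ATF2 and JUND lists gave -12.28 for MED1. Single-factor sites with no window of the other factor within 1 kb gave 64.44 for FOSL2 and a shared difference of 42.76 for CBP. Cofactor lists of equal length (4656 peaks, hence fewer sites held) gave -10.92 for MED1 (either of 2 such lists), -6.16 for CBP, -6.29 for p300 and -7.68 for NCOR, and shared differences of 23.27 for CBP, 19.95 for p300 and 15.53 for NCOR. Requiring both MED1 lists gave -3.08 and 9.47, and leaving out either MED1 list gave -7.66 to -7.28 and 12.93 to 19.99. Counting cofactor windows within 1 kb, chosen after seeing the data, gave -13.08 for MED1. The cause of these shifts was not tested. No paired analysis was possible because ATF2 and JUND have 1 list each and no result comes from a test. Read depth is unknown, so an uncalled site cannot be told apart from one below the authors' threshold.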
